A study of Mus musculus with 8 samples.

Results

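Chromatin accessibility was examined at 9 mouse genes of peroxisomal fatty acid oxidation: Ehhadh, Acaa1a, Acaa1b, Hsd17b4, Abcd2, Abcd3, Pex11a, Pex19 and Decr2. The unit was the consensus region, an interval of open chromatin found in at least 1 library. A region was assigned to a gene when that gene was the nearest of 21900 protein-coding genes, by distance to the gene's span and within 100 kb. This gave 45 of the 49587 consensus regions, from 13 at Abcd3 and 8 at Ehhadh to 2 at Decr2. All 9 genes had at least 1 region.

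ATAC-seq, which reads out open chromatin from where a transposase can cut and tag the DNA, was run on flash-frozen liver from male C57BL/6 mice aged 9 weeks. All mice, controls included, had been fasted for 24 h. The 4 genotypes were WT, Cpt2 L-/-, Ppara -/- and Cpt2 L-/- ; Ppara -/-, the last called double knockout here, with 2 libraries each. Cpt2 encodes an enzyme of the carnitine shuttle that long-chain fatty acids need to enter mitochondria, and Ppara encodes a nuclear receptor activated by fatty acids. The labels describe the Cpt2 knockout as a liver knockout and the Ppara knockout as whole-body. The driver of the Cpt2 deletion, and whether the 2 libraries of a genotype came from separate animals, are not given in the sources used here, so the spread between libraries may be technical. Ppara-intact denotes the 4 WT and Cpt2 L-/- libraries, and Ppara-null the 4 Ppara -/- and double knockout libraries.

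Peroxisomes shorten very long-chain, branched and dicarboxylic fatty acids in a cycle of oxidation, hydration, dehydrogenation and thiolytic cleavage. The substrates enter through ABC transporters of the D family, the bifunctional enzymes carry out the middle steps and the thiolases release acetyl-CoA. In rodent liver, PPARα ligands are known to enlarge the peroxisome population and to induce many of these genes, usually through a direct repeat of a nuclear receptor site.

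The promoters of the thiolase genes and of Ehhadh are shown because their start regions gave different patterns of calls. The Acaa1b start had no peak in any Ppara-null library, that of Acaa1a had a lower-ranked one there, and that of Ehhadh had one whose ranks overlapped. The sequences are the 250 bases before a RefSeq start on GRCm38.p6, the assembly behind mm10, written 5′ to 3′ on the gene's strand. Capitals mark each CCAAT box, the letters CCAAT on the strand shown or ATTGG for the same box on the other strand. The Acaa1b window is chr9:119157094-119157343 on the minus strand, the Acaa1a window chr9:119341044-119341293 on the plus strand and the Ehhadh window chr16:21787835-21788084 on the minus strand. Each lay entirely inside the start region described with its gene, and the RefSeq start behind the Acaa1a window lies inside the annotated gene span.
Acaa1b: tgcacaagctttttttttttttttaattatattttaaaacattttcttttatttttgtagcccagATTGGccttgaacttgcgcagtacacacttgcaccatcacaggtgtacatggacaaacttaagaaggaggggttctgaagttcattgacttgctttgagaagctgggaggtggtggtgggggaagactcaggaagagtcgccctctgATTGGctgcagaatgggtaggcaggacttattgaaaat
Acaa1a: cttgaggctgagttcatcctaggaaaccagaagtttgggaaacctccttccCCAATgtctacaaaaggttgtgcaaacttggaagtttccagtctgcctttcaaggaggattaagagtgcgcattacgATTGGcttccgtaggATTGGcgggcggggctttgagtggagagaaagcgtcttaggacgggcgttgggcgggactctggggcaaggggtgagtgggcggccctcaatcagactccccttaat
Ehhadh: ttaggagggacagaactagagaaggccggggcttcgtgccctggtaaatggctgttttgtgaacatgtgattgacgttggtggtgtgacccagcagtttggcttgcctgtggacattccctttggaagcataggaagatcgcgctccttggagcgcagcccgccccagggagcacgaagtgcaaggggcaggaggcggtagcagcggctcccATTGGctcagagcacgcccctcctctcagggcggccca

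Acaa1b held 2 CCAAT boxes, Acaa1a 3 and Ehhadh 1, while the windows of Abcd3, Pex11a and Decr2 held none. A box on either strand was present in 33.8% of all 32544 promoter windows of this length. The box nearest the start lay 38 bases before it in both Acaa1b and Ehhadh. The direct repeat searched was 2 copies of AGGTCA with 1 base between them, on both strands. No window of the 6 members with a promoter sequence matched it within 2 differences, against 3.25% of all windows. The single copy AGGTCA, the unit of that repeat, was likewise in none of them and in 14.0% of all windows. GC content was 41.6% in the Acaa1b window, 53.6% in that of Acaa1a and 60.4% in that of Ehhadh, against a median of 52.4% over all windows. The thiolase windows matched at 137 of 284 aligned columns (48.2%), with a longest shared run of 8 bases.

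The lists were 28733 to 39296 peaks long with Ppara and 18132 to 22715 without, and they began at a similar lowest −log10 p of 7.11 to 7.82. Depth is unknown, since the files give no read totals. Peak names carried a number of unstated meaning, 441, 443, 446 or 4717 with Ppara and 6831 to 6834 without; if it marks a run, run and Ppara status cannot be told apart. Of 9 hepatocyte markers, 9 had a called gene end in each Ppara-intact library and 8 or 9 in each Ppara-null library, so the defining genes of the labelled tissue were open. None of 6 Kupffer cell and macrophage markers was called in any library. Endothelial markers were called at 1 of 6 against 0 to 1, stellate cell markers at 1 to 3 of 6 against 0, cholangiocyte markers at 2 of 5 against 0 to 1, and lymphocyte markers at 1 of 3 against 0 to 1. List length and these marker calls moved with Ppara status, and their part in the results was not tested. In bulk tissue, fewer cells with an open site and a less open site per cell cannot be told apart.

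The first question was how these genes' chromatin differed with Ppara status. Of the 45 regions, 25 and 35 were called in the WT libraries and 37 and 38 in the Cpt2 L-/- libraries. The Ppara -/- libraries called 17 and 10, and the double knockout libraries 18 and 14. The groups did not overlap: the share called was 75.0% ± 13.3 (SD, n = 4) in Ppara-intact and 32.8% ± 7.99 (SD, n = 4) in Ppara-null libraries, a difference of -42.2 percentage points. Over the 49542 other regions the shares were 69.4% ± 8.87 and 38.9% ± 4.26 (SD, n = 4 each), a difference of -30.5 points. The drop was thus present across all regions as well as at the peroxisomal genes.

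To set list length aside, each list was limited to its strongest 18132 peaks by −log10 p, the length of the shortest. The regions called at the peroxisomal genes were then 20 and 20 in WT, 22 and 19 in Cpt2 L-/-, 16 and 10 in Ppara -/-, and 16 and 14 in the double knockout. The lowest Ppara-intact library still lay above the highest Ppara-null library, and the difference was -13.9 points, against -0.674 points for the other regions. The latter was nearly fixed in advance: lists of equal length hold the other regions' share nearly level, here at 35.3% to 36.4%. Gene-end regions (1 kb or less from an end of the span), 16 of the 45, showed this in the equal-length lists too. Libraries with Ppara called 62.5% to 68.8% of them and libraries without it 43.8% to 50%, while the corresponding shares of other gene-end regions were 53.7% to 58% and 53.9% to 61.0%. No p-value is attached to these shares, since the genes were chosen with results known.

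**Figure D1:**
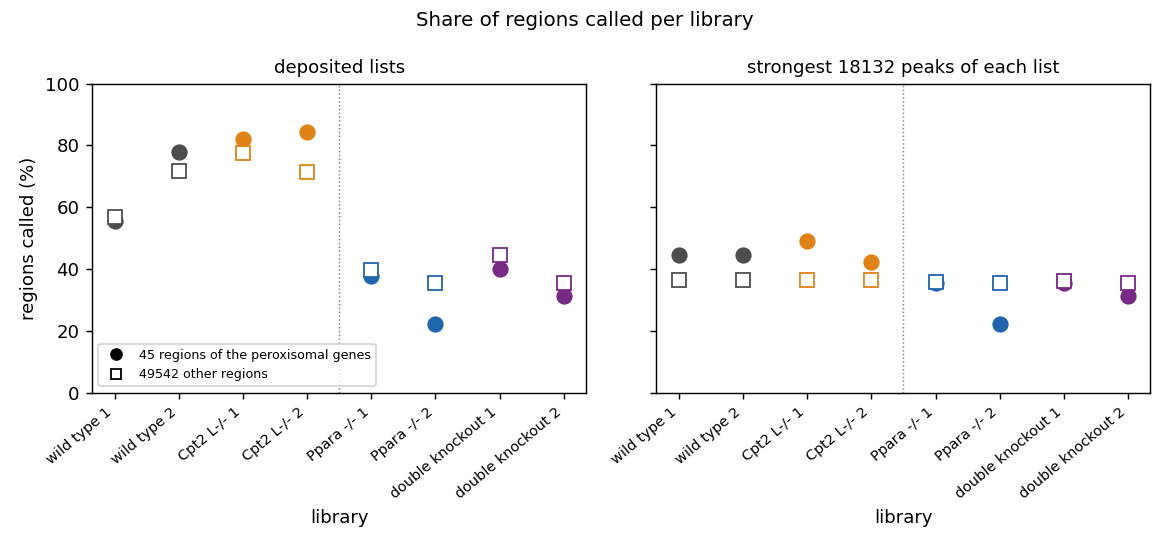
Percent of regions called (vertical axis) in each of the 8 libraries (horizontal axis, coloured by genotype), in the deposited lists and in each list's strongest 18132 peaks; filled circles are the 45 regions of the peroxisomal genes and open squares the 49542 other regions. Among the strongest 18132 peaks of each list, the squares are nearly level, as equal list length makes them. The circles run from 42.2% to 48.9% with Ppara and from 22.2% to 35.6% without.

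Peaks were present in all 8 libraries at 9 of the 45 regions (20%), against 22.7% of all regions. They comprised the region at 1 end of Ehhadh, Acaa1a, Hsd17b4, Abcd3, Pex11a, Pex19 and Decr2, 1 inside Decr2 and 1 far upstream of Abcd3. No region of Acaa1b or Abcd2 was among them. The 9 had a median width of 551 bp, against 368 bp over the 45, and regions called in fewer libraries reached similar widths. At the other extreme, 10 regions were called in 1 library alone (22.2%, against 23.0% of all regions), and 9 of those were in a Cpt2 L-/- library. The Cpt2 L-/- lists held 39296 and 35908 peaks, against 28733 and 36141 in WT. How all single-library regions were divided among the libraries was not counted, so the 9 have no background share. In all, 26 regions (57.8%, against 42.3% of all regions) were called in no Ppara-null library, and 0 were called in Ppara-null libraries alone, against 5.43% of all regions.

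Complete separation by Ppara status was seen at 6 regions of 4 genes. A peak was present there in each of the 4 libraries with Ppara and in none of the 4 without. They comprised 3 regions of Acaa1b and 1 each of Hsd17b4, Abcd2 and Abcd3. That is 13.3% of the 45, against 6.82% of all regions. The opposite pattern was found at 0 of the 45 and at 0.0686% of all regions. Fisher's exact test on 4 against 4 libraries gives a two-sided p of 0.0286 at best, which is 0.415 after Benjamini-Hochberg adjustment over the 49587 regions. No region of any gene passed an adjusted threshold of 0.05, and 3418 passed it unadjusted, or 0 by an exact permutation test with the replicate number as a block. In the equal-length lists 1 of the 26 regions still called showed the pattern, the Acaa1b start. That is 3.85%, against 1.34% of all 30017 regions still called. The opposite pattern was at 0 of 26 against 0.846%.

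**Figure D2:**
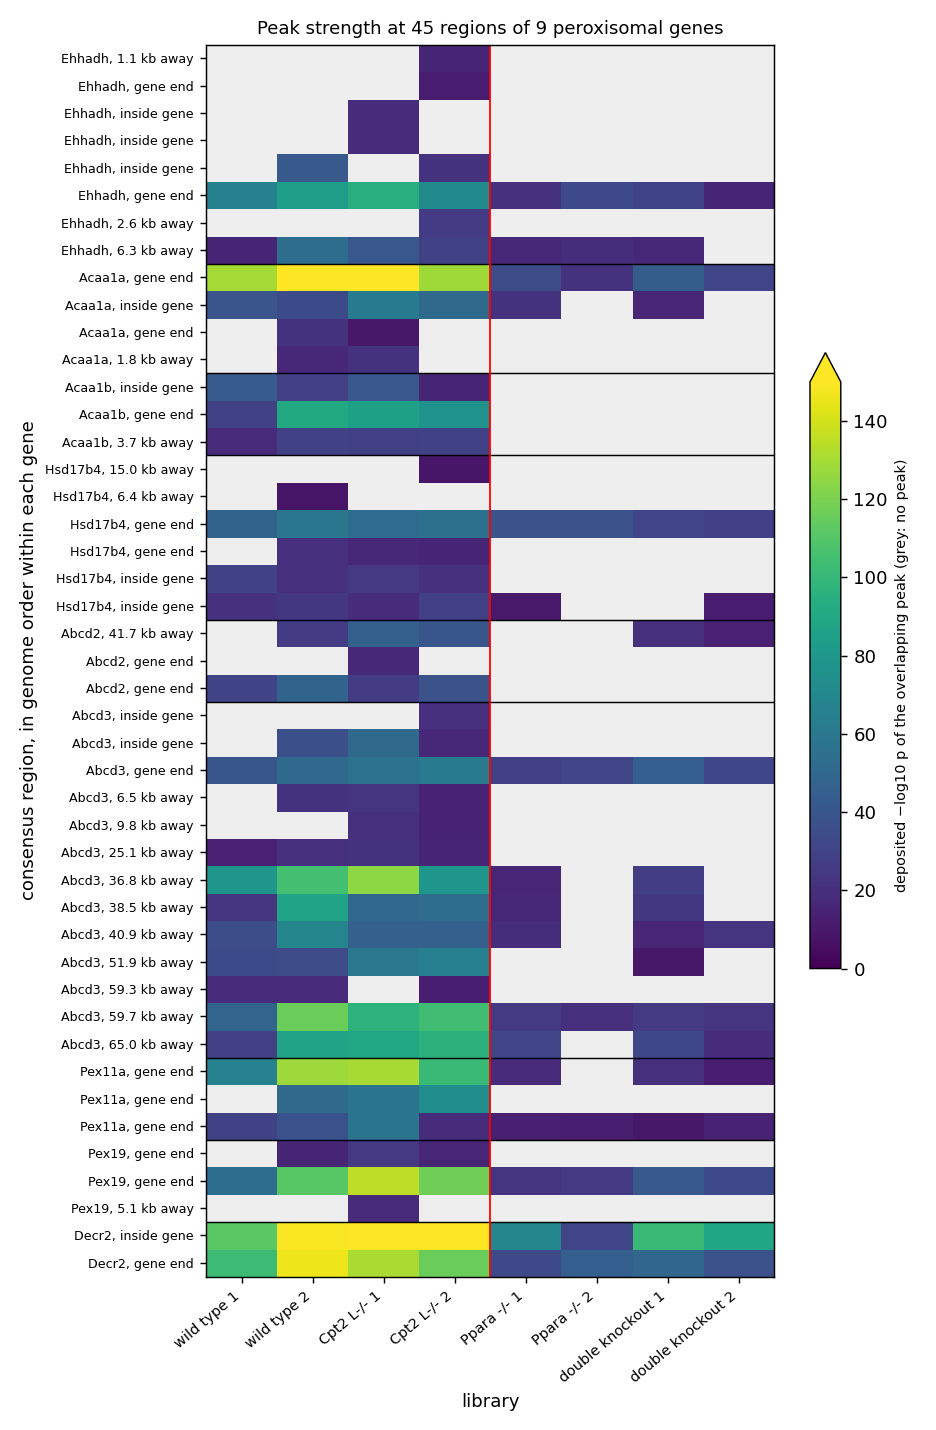
Deposited −log10 p of the overlapping peak (colour, capped at 150; grey where no peak was called) at the 45 regions, one row each in genome order within a gene, in the 8 libraries; the red line divides the Ppara-intact libraries from the Ppara-null libraries. The 3 Acaa1b rows are coloured only left of the line, and both Decr2 rows are coloured in all 8 columns.

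Acaa1b and Acaa1a encode the peroxisomal ketoacyl-CoA thiolases, which carry out the last step of the cycle. The fold and −log10 p of a peak are the authors' values from each list's own peak calling. They describe a peak within its library and are set side by side as deposited, with no test between libraries. Libraries were compared by calls and by rank in lists of equal length, with ranks in the full lists, which differ in length, given as an alternative. In the full lists the median difference in percentile, Ppara-null minus Ppara-intact, was -12.5 over the 11258 regions called in all 8 libraries. Each full-list difference below stands beside that value. Acaa1a and Acaa1b are paralogs, and how reads matching both were handled is not given in the sources used here.

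Every region of Acaa1b (chromosome 9, 119148043 to 119157093, minus strand, gene ID 235674) had a peak in all 4 libraries with Ppara, and none had a peak in a library without it. The start region, chr9:119156848-119157351, had a −log10 p of 29.7 and 91.1 in the WT libraries and 85.4 and 76.8 in the Cpt2 L-/- libraries. Its fold was 4.38 and 7.29 in the WT libraries and 6.50 and 6.399 in the Cpt2 L-/- libraries. WT library 1 had the lowest −log10 p and the lowest fold of the 4. Among the strongest 18132 peaks of each list, this region stood at percentiles of 24.1 and 67.3 in WT and of 62.6 and 69.3 in Cpt2 L-/- and was absent from the other 4.

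The second Acaa1b region, chr9:119155500-119155876, lies inside the gene, 1217 bp from the start. It had a −log10 p of 43.2 and 28.1 in the WT libraries and 40.4 and 15.4 in the Cpt2 L-/- libraries, and a fold of 5.48 and 3.95 in the WT libraries and 4.47 and 2.98 in the Cpt2 L-/- libraries. The third region, chr9:119160756-119161034, lies 3663 bp upstream. It had a −log10 p of 17.9 and 28.9 in the WT libraries and 28.3 and 29.7 in the Cpt2 L-/- libraries, and a fold of 3.44 and 3.75 in the WT libraries and 3.52 and 3.68 in the Cpt2 L-/- libraries. Both were weak peaks: the inside region entered 2 of the 4 Ppara-intact equal-length lists, and the upstream region entered none.

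At Acaa1a (chromosome 9, 119341028 to 119350296, plus strand, gene ID 113868), the start region was called in all 8 libraries. This region, chr9:119340902-119341562, had a −log10 p of 129.6 and 150.3 in the WT libraries, 204.9 and 128.8 in the Cpt2 L-/- libraries, 34.6 and 21.7 in the Ppara -/- libraries, and 44.1 and 31.1 in the double knockout libraries. Its fold was 9.24 and 9.45 in the WT libraries, 10.9 and 8.15 in the Cpt2 L-/- libraries, 5.53 and 4.70 in the Ppara -/- libraries, and 6.23 and 5.51 in the double knockout libraries. Its percentile in the equal-length lists was 93.0 ± 2.73 (SD, n = 4) in Ppara-intact and 71.0 ± 9.40 (SD, n = 4) in Ppara-null libraries. The ranges of 89.6 to 95.9 and 57.3 to 78.2 did not overlap, and the difference was -21.9 (two-sided exact permutation test over 70 orders, p = 0.0286, the smallest possible). Ranked by fold in place of −log10 p, the difference was -12.5 with an exact p of 0.229, so the separation rested on the ranking measure. The difference was -23.4 by rank in the full lists (exact permutation p = 0.0286).

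The other Acaa1a regions were weaker. One inside the gene, chr9:119342708-119343072, had a peak in each Ppara-intact library and in the first library of each Ppara-null genotype. The remaining pair, 266 and 1817 bp beyond the downstream end, was called in WT library 2 and Cpt2 L-/- library 1 only.

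**Figure D3:**
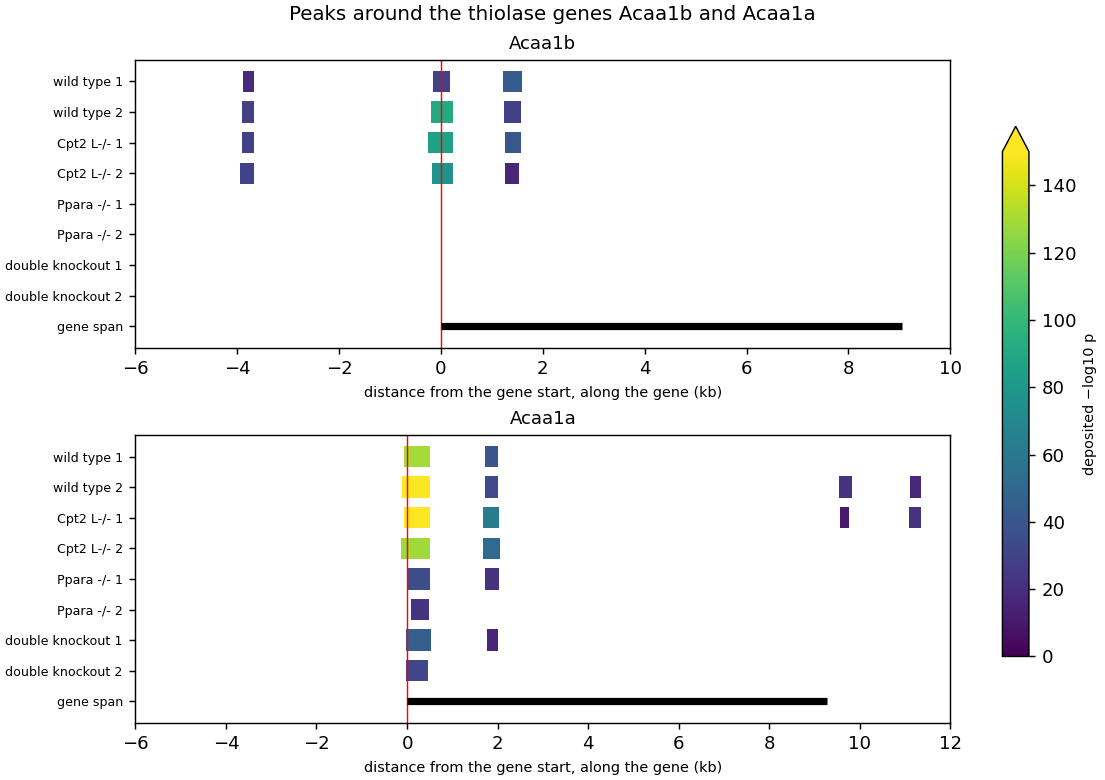
Peaks called in each library (rows) around Acaa1b and Acaa1a, by distance from the gene start in kb along the gene (horizontal axis); colour is the deposited −log10 p, capped at 150, and the black bar is the gene span. The Ppara-null rows are empty at Acaa1b and keep a peak at the Acaa1a start, where the −log10 p was 21.7 to 44.1 against 128.8 to 204.9.

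Ehhadh and Hsd17b4 encode the bifunctional enzymes of the L and D pathways, each of which hydrates and then dehydrogenates the acyl-CoA. At Ehhadh (chromosome 16, 21761285 to 21787834, minus strand, gene ID 74147) the start region was called in all 8 libraries, and the other regions differed widely between libraries. The start region, chr16:21787541-21788180, had a −log10 p of 66.1 and 83.7 in the WT libraries, 94.2 and 71.4 in the Cpt2 L-/- libraries, 21.6 and 33.0 in the Ppara -/- libraries, and 30.6 and 15.6 in the double knockout libraries. Its fold was 10.5 and 8.95 in the WT libraries, 9.59 and 7.14 in the Cpt2 L-/- libraries, 6.06 and 8.41 in the Ppara -/- libraries, and 7.16 and 5.12 in the double knockout libraries. The percentile was 67.1 ± 4.68 in Ppara-intact and 53.0 ± 22.1 in Ppara-null libraries (SD, n = 4 each; exact permutation p = 0.286), and the ranges overlapped. The difference of -14.0 was -23.0 without Ppara -/- library 2 (exact p = 0.0286) and -5.6 without double knockout library 2 (exact p = 0.6). Ranked by fold it was +14.1 (exact p = 0.429), so its direction depended on the ranking measure. By −log10 p in the full lists the difference was -26.3 (exact permutation p = 0.0286).

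An upstream Ehhadh region 6298 bp from the start, chr16:21794132-21794620, was called in 7 libraries, all but double knockout library 2. The other 6 Ehhadh regions were called in no Ppara-null library. Of these, 5 were single-library calls, all in a Cpt2 L-/- library, a count with no background share. The sixth was called in WT library 2 and Cpt2 L-/- library 2. The −log10 p of the 6 ran from 11.2 to 41.7. No Ehhadh region separated the genotypes completely.

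Hsd17b4 (gene ID 15488) had 6 regions, of which the one at the lower-coordinate end of the gene was called in all 8 libraries. That region, chr18:50128117-50128667, had a −log10 p of 47.7 and 59.1 in the WT libraries, 52.7 and 55.5 in the Cpt2 L-/- libraries, 38.1 and 37.4 in the Ppara -/- libraries, and 31.4 and 28.6 in the double knockout libraries. Its fold was 8.05 and 7.67 in the WT libraries, 6.99 and 6.64 in the Cpt2 L-/- libraries, 8.33 and 7.82 in the Ppara -/- libraries, and 7.54 and 7.31 in the double knockout libraries. Its rank went the opposite way from that of Acaa1a. The percentile was 42.3 ± 11.9 in Ppara-intact and 73.6 ± 10.8 in Ppara-null libraries (SD, n = 4 each), with ranges of 27.6 to 55.7 and 60.8 to 84.6, a difference of +31.3 (exact permutation p = 0.0286). In the full lists the difference was 5.84 (exact permutation p = 0.343). Ranked by fold in the equal-length lists it was 52.1 (exact permutation p = 0.0286).

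The Hsd17b4 region called only with Ppara intact, chr18:50133718-50134168, lies inside the gene, 5517 bp from that end. It had a −log10 p of 29.6 and 19.9 in the WT libraries and 25.1 and 21.4 in the Cpt2 L-/- libraries, and a fold of 6.88 and 4.84 in the WT libraries and 5.38 and 4.51 in the Cpt2 L-/- libraries. It entered 1 of the 4 Ppara-intact equal-length lists. A neighbour of the end region, chr18:50128740-50128997, was called in WT library 2 and both Cpt2 L-/- libraries and in no Ppara-null library.

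Abcd2 and Abcd3 encode peroxisomal membrane transporters for acyl-CoAs. Abcd2 (chromosome 15, 91145871 to 91192007, gene ID 26874) had a region over its higher-coordinate end, chr15:91191614-91192200, that was called only with Ppara intact. The deposited −log10 p was 31.0 and 48.1 in the WT libraries and 26.1 and 38.2 in the Cpt2 L-/- libraries, and the fold was 8.70 and 11.97 in the WT libraries and 8.04 and 9.46 in the Cpt2 L-/- libraries. In the equal-length lists it was present in 3 of 4 lists with Ppara and in none of the 4 without. A second region beside it was called in Cpt2 L-/- library 1 alone.

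The third Abcd2 region, chr15:91103802-91104169, lies 41702 bp from the gene. Its −log10 p was 26.1 in WT library 2, 45.8 and 40.04 in the Cpt2 L-/- libraries, and 20.3 and 14.0 in the double knockout libraries, and its fold was 8.04 in WT library 2, 11.6 and 10.6 in the Cpt2 L-/- libraries, and 6.87 and 5.49 in the double knockout libraries. It was called in both Cpt2 L-/- and both double knockout libraries, in 1 of 2 WT libraries and in neither Ppara -/- library. Among the strongest 18132 peaks of each list, it was in all 4 libraries without Cpt2 and in none of the 4 with it. That rested on where each list was cut. The peak of WT library 2, at 26.1, fell below that list's lowest −log10 p of 36.6. The list of double knockout library 2 reached down to 7.77, and the double knockout peaks were weaker than the WT one.

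Abcd3 (chromosome 3, 121758904 to 121815302, minus strand, gene ID 19299) had the most regions, 10 of its 13 outside the gene and upstream. The WT libraries called 9 and 11 of the 13, the Cpt2 L-/- libraries 11 and 13, the Ppara -/- libraries 6 and 2, and the double knockout libraries 7 and 4. Over the 49542 regions outside the 9 genes the sides did not overlap either. Ppara-intact libraries called 56.9% to 77.7% of those and Ppara-null libraries 35.5% to 44.5%. The start region, chr3:121814382-121815655, was the widest of the 45 at 1274 bp and was called in all 8 libraries. The deposited −log10 p was 40.2 and 51.1 in the WT libraries, 56.8 and 61.8 in the Cpt2 L-/- libraries, 28.4 and 31.2 in the Ppara -/- libraries, and 44.6 and 31.7 in the double knockout libraries, and the fold was 7.50 and 8.004 in the WT libraries, 8.53 and 8.44 in the Cpt2 L-/- libraries, 7.25 and 7.66 in the Ppara -/- libraries, and 8.79 and 8.36 in the double knockout libraries. Its percentile was 40.3 ± 12.1 in Ppara-intact and 73.7 ± 6.42 in Ppara-null libraries (SD, n = 4 each), with ranges of 27.7 to 54.9 and 64.5 to 78.7, a difference of +33.4 (exact permutation p = 0.0286). In the full lists the difference was 6.86 (exact permutation p = 0.2). Ranked by fold in the equal-length lists it was 46.5 (exact permutation p = 0.0286).

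The strongest of the upstream Abcd3 regions, chr3:121852133-121852556, lies 36831 bp upstream. Its −log10 p was 78.8 and 105.3 in the WT libraries, 124.3 and 78.9 in the Cpt2 L-/- libraries, 15.8 in Ppara -/- library 1, and 27.3 in double knockout library 1, and its fold was 10.6 and 9.56 in the WT libraries, 11.1 and 9.00 in the Cpt2 L-/- libraries, 5.06 in Ppara -/- library 1, and 6.89 in double knockout library 1. It was called in every Ppara-intact library and in the first library of each Ppara-null genotype. The region at 59730 bp, chr3:121875032-121875521, was the only upstream one called in all 8 libraries. Its percentile was 73.1 ± 12.4 in Ppara-intact and 53.9 ± 4.74 in Ppara-null libraries (SD, n = 4 each). The difference was -19.2 (exact permutation p = 0.0571), and -24.6 without WT library 1 (exact p = 0.0286). By rank in the full lists it was -27.6 (exact p = 0.0286), and ranked by fold it was -11.7 (exact p = 0.114).

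Between 36831 and 65000 bp upstream lay 7 regions in all, of which each Ppara-intact library called 6 or 7. Double knockout libraries 1 and 2 called 6 and 3 of the 7, and Ppara -/- libraries 1 and 2 called 5 and 1, so the sides met at 6. Regions outside genes fell elsewhere too: excluding those of the 9 genes, Ppara-intact libraries called 47.3% to 72.5% of them and Ppara-null libraries 25.2% to 35.9%. The region called only with Ppara intact, chr3:121840450-121840759, lies nearer, at 25148 bp. Its −log10 p was 14.0 and 20.3 in the WT libraries and 22.2 and 15.7 in the Cpt2 L-/- libraries, its fold was 5.49 and 6.87 in the WT libraries and 7.26 and 5.41 in the Cpt2 L-/- libraries, and it entered none of the equal-length lists. A region at 9839 bp, chr3:121825141-121825405, was called in both Cpt2 L-/- libraries and nowhere else. The deposited −log10 p was 20.3 and 14.9 in the Cpt2 L-/- libraries, and the fold was 6.87 and 5.69 in the Cpt2 L-/- libraries, and it also entered no equal-length list.

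**Figure D4:**
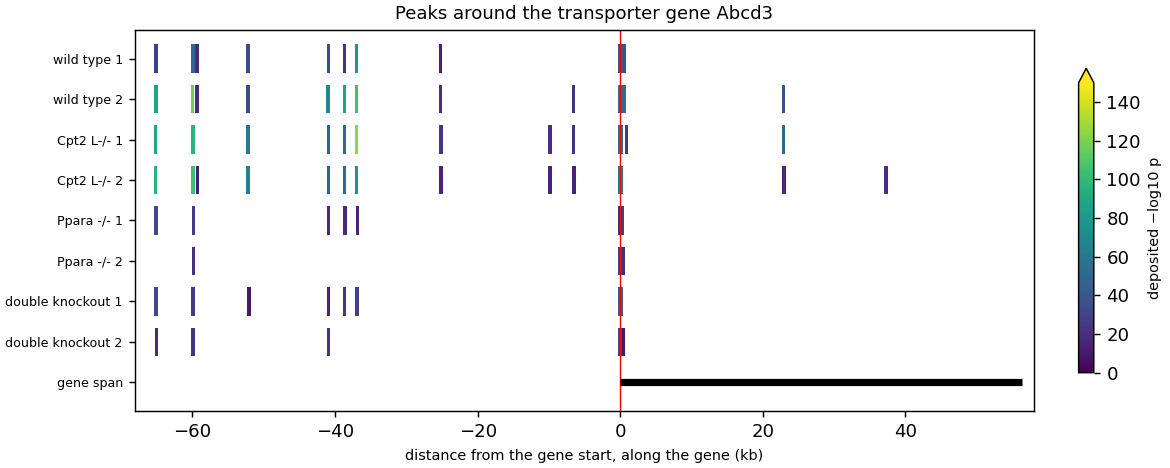
Peaks called in each library (rows) around Abcd3, by distance from the gene start in kb along the gene (horizontal axis, negative upstream); colour is the deposited −log10 p, capped at 150, and the black bar is the gene span. All 8 rows hold the start peak, and the upstream group thins out in the Ppara-null rows, with Ppara -/- library 2 keeping 1 upstream region.

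Pex11a and Pex19 act in making peroxisomes: Pex11a in their elongation and division, and Pex19 as the carrier of newly made membrane proteins. Pex11a (chromosome 7, 79735957 to 79743131, minus strand, gene ID 18631) had 3 regions, all within 1 kb of an end. The start region, chr7:79742808-79743348, is shared with the neighbouring gene Wdr93, whose span it also touches. Its −log10 p was 29.4 and 37.6 in the WT libraries, 57.5 and 18.8 in the Cpt2 L-/- libraries, 13.1 and 12.4 in the Ppara -/- libraries, and 9.70 and 15.0 in the double knockout libraries, and its fold was 7.24 and 8.20 in the WT libraries, 10.4 and 4.81 in the Cpt2 L-/- libraries, 4.97 and 4.83 in the Ppara -/- libraries, and 4.37 and 5.56 in the double knockout libraries. It was called in all 8 libraries but was weak, and entered 3 of 4 equal-length lists on each side.

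The strongest Pex11a region, chr7:79734566-79735140, lies 817 bp beyond the downstream end. The deposited −log10 p was 66.8 and 128.0 in the WT libraries, 130.2 and 101.2 in the Cpt2 L-/- libraries, 18.6 in Ppara -/- library 1, and 20.4 and 12.2 in the double knockout libraries, and the fold was 9.08 and 10.8 in the WT libraries, 10.8 and 8.15 in the Cpt2 L-/- libraries, 5.72 in Ppara -/- library 1, and 5.32 and 4.02 in the double knockout libraries. In the equal-length lists it stood at percentiles of 73.4 to 84.1 in the 4 Ppara-intact libraries. The 3 Ppara-null libraries that called it had it at percentiles of 9.44 to 32.9, with no overlap. Ppara -/- library 2 had no peak there, and the share of all regions with such a pattern was not counted. The third region, chr7:79736563-79736948, lies inside the gene, 606 bp from the same end. It was called in WT library 2 and both Cpt2 L-/- libraries, with a −log10 p of 51.8 to 73.5, and in no Ppara-null library.

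Pex19 (chromosome 1, 172126755 to 172136497, gene ID 19298) had 1 region called throughout, chr1:172127484-172127955, at 729 bp inside its lower-coordinate end. Its −log10 p was 54.2 and 110.9 in the WT libraries, 135.3 and 117.5 in the Cpt2 L-/- libraries, 23.0 and 24.8 in the Ppara -/- libraries, and 41.9 and 33.3 in the double knockout libraries, and its fold was 8.95 and 13.3 in the WT libraries, 14.2 and 13 in the Cpt2 L-/- libraries, 5.98 and 6.67 in the Ppara -/- libraries, and 9.14 and 7.84 in the double knockout libraries. The percentile was 79.0 ± 11.5 in Ppara-intact and 67.0 ± 12.5 in Ppara-null libraries (SD, n = 4 each; exact permutation p = 0.257), and the ranges overlapped. The difference of -12.0 was -6.24 without Ppara -/- library 1 and -17.2 without WT library 1. It was -18.8 by rank in the full lists (exact p = 0.0571) and -8.02 ranked by fold (exact p = 0.514). Its neighbour over the gene end was called in WT library 2 and both Cpt2 L-/- libraries, and the third region in Cpt2 L-/- library 1 alone.

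Decr2 encodes the peroxisomal dienoyl-CoA reductase, an auxiliary enzyme that prepares unsaturated fatty acids for the cycle. Decr2 (chromosome 17, 26081208 to 26090322, minus strand, gene ID 26378) was the only one of the 9 genes with every region called in all 8 libraries. The start region, chr17:26090000-26090623, had a −log10 p of 102.9 and 146.4 in the WT libraries, 131.0 and 116.6 in the Cpt2 L-/- libraries, 33.1 and 44.8 in the Ppara -/- libraries, and 49.4 and 36.9 in the double knockout libraries, and a fold of 8.80 and 9.89 in the WT libraries, 8.25 and 7.81 in the Cpt2 L-/- libraries, 5.84 and 7.11 in the Ppara -/- libraries, and 6.60 and 5.94 in the double knockout libraries. The region inside the gene, chr17:26086954-26087488, had a −log10 p of 111.6 and 148.3 in the WT libraries, 229.3 and 186.9 in the Cpt2 L-/- libraries, 69.3 and 31.1 in the Ppara -/- libraries, and 101.2 and 88.7 in the double knockout libraries, and a fold of 9.39 and 10.3 in the WT libraries, 12 and 10.7 in the Cpt2 L-/- libraries, 9.46 and 5.94 in the Ppara -/- libraries, and 10.6 and 10.5 in the double knockout libraries. Both ranked high on each side. The start region's percentile was 87.8 ± 2.51 against 81.6 ± 6.77, and that of the inside region 93.9 ± 4.35 against 92.1 ± 9.85 (SD, n = 4 each). The differences of -6.23 and -1.83 were within the overlap of the libraries (exact permutation p = 0.143 and 0.771). The start region differed by -9.0 without Ppara -/- library 2 (exact p = 0.0286) and by -3.49 without Ppara -/- library 1 (exact p = 0.257). Ranked by fold both differences turned, to +15.5 at the start region (exact p = 0.229) and +20.8 inside the gene (exact p = 0.114). By −log10 p in the full lists they were -10.5 (exact p = 0.0286) and -4.29 (exact p = 0.686). Neither fell as far as the full-list median of -12.5 over all 11258 regions called throughout.

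**Figure D5:**
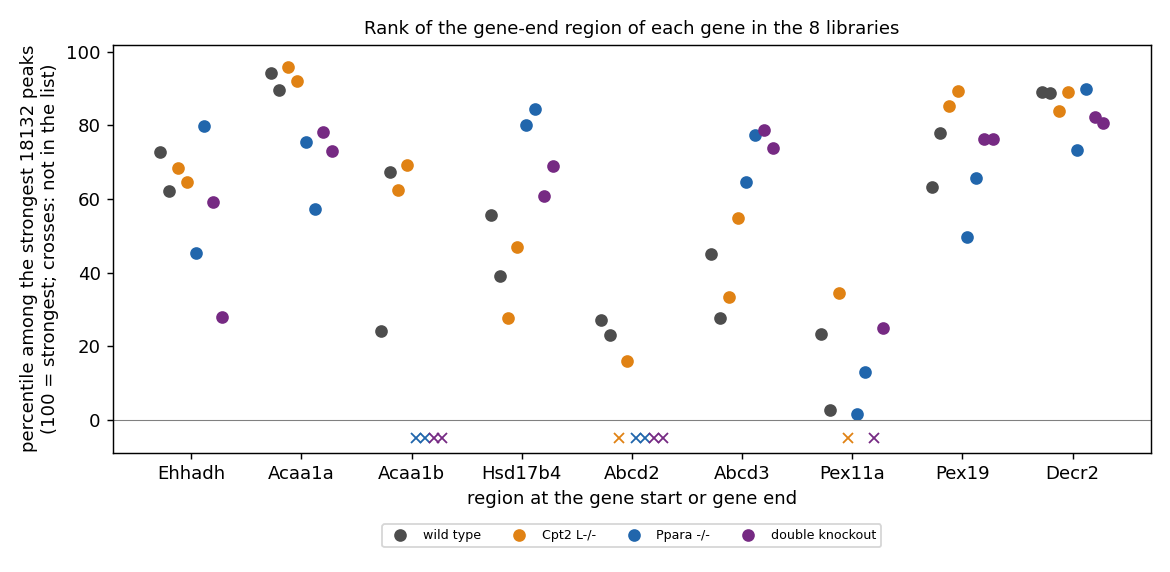
Percentile of 1 gene-start or gene-end region of each of the 9 genes among the strongest 18132 peaks of each library (vertical axis, 100 the strongest; crosses mark libraries whose equal-length list lacks the region), with 1 point per library coloured by genotype. The Acaa1a points of the Ppara-null libraries lie below all Ppara-intact points, those of Hsd17b4 and Abcd3 lie above them, and Acaa1b has crosses in the 4 Ppara-null libraries.

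Ranks could be compared at 8 regions of these genes, those present in all 8 equal-length lists. Of the 8, 1, the Acaa1a start, ranked lower in every Ppara-null than in every Ppara-intact library, against 5.96% of the 9073 regions present in all 8 such lists. Another 2, at the Hsd17b4 end and the Abcd3 start, ranked higher in every Ppara-null library, against 5.07%. The exact p of 0.0286 became 0.259 at the lowest after Benjamini-Hochberg adjustment over the 9073, so no single region passed. The median difference was -9.1 over the 8 regions and -1.38 over all 9073. Ranked by fold these medians were +14.8 and +0.678, so the direction of the median turned with the ranking measure. By fold 0 of the 8 ranked lower in every Ppara-null library, against 4.21% of all, and in the full lists 4 of 9 did, against 26.0% of all. The medians in the full lists were -18.8 over the 9 regions and -12.5 over all 11258.

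The pairs of genotypes asked what each deletion did on each background; a region counted when both libraries of one genotype called it and neither of the other did. With 2 against 2 libraries the smallest Fisher p is 0.333, so these are counts without a test. The comparisons share control libraries, so their counts are not independent. Ppara -/- against WT gave 8 regions called only in WT (17.8%, against 13.6% of all regions) and 0 only in Ppara -/- (against 0.46%). The 8 were the 6 above and the Abcd3 regions at 51894 and 59317 bp upstream. The double knockout against WT gave 7 called only in WT (15.6%, against 12.9%) and 0 only in the double knockout (against 1.2%). The double knockout against Cpt2 L-/- gave 12 called only in Cpt2 L-/- (26.7%, against 20.4%) and 0 only in the double knockout (against 0.597%). These 12 lay at Acaa1b, Abcd2, Abcd3, Hsd17b4, Pex11a and Pex19, and none at Ehhadh, Acaa1a or Decr2.

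Loss of Cpt2 left few such differences. Cpt2 L-/- against WT gave 1 region called only in Cpt2 L-/-, the Abcd3 region 9839 bp upstream (2.22%, against 3.63% of all regions), and 0 called only in WT (against 0.512%). The double knockout against Ppara -/- gave 1 region called only in the double knockout, the Abcd2 region 41702 bp away (2.22%, against 2.33%), and 0 called only in Ppara -/- (against 1.45%). Across all 8 libraries 0 of the 45 regions were called in all 4 libraries without Cpt2 and none with it, against 0.0968% of all regions, and 0 showed the opposite, against 0.00605%. Among the strongest 18132 peaks of each list, 1 of 26 regions, the same Abcd2 region, was in the 4 lists without Cpt2 and none with it (3.85%, against 0.0666%). WT library 2 called that region too, but below the cut of its equal-length list. The opposite was shown by 0 regions (against 0.0899%). For Cpt2 status the smallest adjusted p over all regions was 1.0, and 51 regions of any gene passed unadjusted.

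Leaving out 1 library moved these counts. Without WT library 1, whose list was the shortest of the Ppara-intact ones, 11 regions in place of 6 were called only with Ppara intact (24.4%, against 11.8% of all regions). The 5 additional ones were the Pex19, Hsd17b4 and Pex11a regions described above as called in WT library 2 and both Cpt2 L-/- libraries, and 2 of Abcd3. Regions called only in WT then numbered 18 in the comparison with Ppara -/- (40%, against 29.8% of all regions) and 16 in that with the double knockout (35.6%, against 29.6%). The former count was 15 without Ppara -/- library 1 (33.3%, against 20.9%), and the latter was 12 without double knockout library 1 (26.7%, against 21.3%). Without Cpt2 L-/- library 1, 19 regions were called only in Cpt2 L-/- and not in the double knockout (42.2%, against 28.4%). Cpt2 L-/- against WT gave 7 called only in Cpt2 L-/- without WT library 2 (15.6%, against 12% of all regions) and 6 without Cpt2 L-/- library 1 (13.3%, against 9.83%). Without Cpt2 L-/- library 2 it gave 5 (11.1%, against 11.7%) and 1 called only in WT (2.22%, against 1.21%), and without WT library 1 it gave 1 in each direction (2.22% each, against 5.0% and 5.37%). The double knockout against Ppara -/- gave 4 called only in the double knockout without Ppara -/- library 1 (8.89%, against 6.2%) and 2 without double knockout library 2 (4.44%, against 8.48%). Without double knockout library 1 it gave 1 in each direction (2.22% each, against 4.85% and 4.6%). Separation by Cpt2 status gave 1 without WT library 2 (2.22%, against 0.29%), again the distant Abcd2 region. WT library 2 was the only library with Cpt2 that called it.

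Beyond the 9 genes, 46 other genes of peroxisomal oxidation, transport and assembly held 186 regions. Calls in all 8 libraries were found at 52 (28.0%, beside 22.7% of all regions). Of the 186, a library called 63.4% to 84.4% with Ppara and 34.9% to 51.6% without, beside 56.9% to 77.7% and 35.5% to 44.5% of the regions outside the 9 genes. Called only with Ppara intact were 14 regions (7.53%, beside the 6.82% of all regions given above), at 12 genes. Of these, 3 lay inside Scp2, which encodes a sterol carrier protein with a thiolase form, at a −log10 p between 16.7 and 56.9. The others were 1 each at Crot and Crat, which encode carnitine acyltransferases found in peroxisomes, at Eci2, Cat, Nudt19, Mlycd, Tysnd1 and Pxmp4, and at the biogenesis genes Pex7, Pex14 and Pex26. In the equal-length lists 3 of the 186 kept the pattern (1.61%, beside 0.811% of all 49587 regions). They were a region 43480 bp from Crot at 32.5 to 51.6, one inside Eci2, an enoyl-CoA isomerase gene, at 35.3 to 54.4, and one inside Tysnd1, a peroxisomal protease gene, at 29.9 to 73.9.

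The reverse pattern occurred at 1 of the 186 in the deposited lists (0.538%, beside 0.0686% of all regions), at a region 11149 bp from Eci2 with a −log10 p of 20.3 to 28.5 in the 4 Ppara-null libraries. Eci2 thus had 1 region on each side. Among the strongest 18132 peaks of each list, the reverse pattern occurred at 2 regions (1.08%, beside 0.512% of all 49587), that one and 1 of Pex26. None of the 186 regions was separated by Cpt2 status in the deposited lists.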

How the data were processed

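ATAC-seq peaks of 8 liver libraries, 2 for each of 4 genotypes, were analysed. Reads were aligned with BWA to mm10 and peaks called with MACS2 2.1.0, per the submitters' processing notes; handling of duplicates, multi-mapping reads and the transposase offset is not given in the sources used here and could shift or remove peaks. Each deposited list, 1 per library, holds for every peak a position, a score, a fold (the ratio of pileup to background), a −log10 p and a −log10 q. The authors' further deposited table gives consensus positions and no counts or signal. Its 49587 regions matched those obtained by merging the 8 lists on overlap.

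Calling a region in a library required an overlap of 1 bp or more with a peak. The planned unit was presence or absence of a peak, with a count model only had counts been deposited. Gene spans and promoters came from RefSeq on GRCm38.p6, which matches mm10; strand was taken from promoter windows and is given where one existed. Exons were not used here. All 9 genes matched by symbol, and 6 had a promoter sequence. Percentiles rank peaks by −log10 p within a list, with 100 the strongest.

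Complete separation of calls was counted for Ppara and Cpt2 status and for pairs of genotypes. Fisher's exact test and exact permutation tests over libraries used Benjamini-Hochberg adjustment over all regions, and the counting was tested on simulated data. A region was described in full if it lay at a gene's start, was completely separated by status, was its gene's strongest by median −log10 p, or was called in both libraries of exactly 1 or 3 genotypes and in neither of the others. Other regions named were chosen after their values were seen. Alternatives were equal-length lists, a −log10 q of at least 20, a peak covering 50% of a region, a 20 kb limit and leaving out each library. The genes, lists and tests were chosen with earlier results of these data known, and the rank comparisons and motif searches were added after the data were seen. Python 3.11.15, NumPy 2.4.6, pandas 2.3.3, SciPy 1.17.1 and matplotlib 3.10.9 were used.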

Additional observations from a re-analysis of the deposited data

Results flagged for a closer look

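Both results picked out as having 1 library far from the others of its side concern Decr2. At the Decr2 start region, Cpt2 L-/- library 1 stood at a percentile of 84.0, while the other 3 Ppara-intact libraries lay between 88.9 and 89.2. At the region inside Decr2, Ppara -/- library 2 stood at 77.4, while the other 3 Ppara-null libraries lay between 95.9 and 98.0. The gap to the nearest other library exceeded Dixon's critical value for 4 libraries in both cases. Chance picks out about 1 in 20 sets of values, and 18 were checked.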

How the results depend on the processing

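Requiring a peak to cover 50% of a region changed none of the counts given for Ppara status, Cpt2 status or pairs of genotypes by over 1.5 times. In the equal-length lists the counts of separated regions became 1 for Ppara status and 1 for Cpt2 status. Ppara -/- against WT then gave 2, only in WT (4.44%, against 3.44% of all regions). The double knockout against WT gave 3, with 2 only in WT (4.44%, against 3.35%) and 1 only in the double knockout (2.22%, against 3.08%). The double knockout against Cpt2 L-/- gave 3, only in Cpt2 L-/- (6.67%, against 2.99%). The difference in share called became -13.9 points, against -0.674 points for the other regions, which equal list length nearly fixes. These lists hold fewer peaks of the Ppara-intact libraries by construction. A −log10 q of at least 20 gave 0 for Cpt2 L-/- against WT (against 2.21% of all regions only in Cpt2 L-/- and 0.159% only in WT). It gave 0 for the double knockout against Ppara -/- (against 1.85% only in the double knockout and 0.692% only in Ppara -/-). A limit of 20 kb to the gene gave 5 of 36 regions for Ppara -/- against WT (13.9%, against 13.6% of all regions). It gave 0 for the double knockout against Ppara -/- (against 2.33% only in the double knockout and 1.45% only in Ppara -/-), since fewer regions were counted.

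Leaving out each library in turn gave 6 to 11 regions for Ppara status, 0 to 1 for Cpt2 status, 8 to 18 for Ppara -/- against WT, 7 to 16 for the double knockout against WT, 12 to 19 for the double knockout against Cpt2 L-/-, 1 to 7 for Cpt2 L-/- against WT and 1 to 4 for the double knockout against Ppara -/-. The difference in share called ran from -48.7 to -38.7 points, and that of the other regions from -34.7 to -27.8 points.

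Ranking by fold turned the sign of the rank difference at the Ehhadh start (14.1), inside Decr2 (20.8) and at the Decr2 start (15.5); without Ppara -/- library 2 the region inside Decr2 gave 3.07, and over all single libraries left out it ran from -3.78 to 3.07. With all libraries and equal-length lists, none of these differences passed 0.05 by −log10 p or by fold (exact permutation tests). The 3.07 inside Decr2 had an exact permutation p of 0.4. In the full lists the median difference over all 11258 regions called throughout was -12.5. By −log10 p in those lists, the Ehhadh start (-26.3) and the Decr2 start (-10.5) had an exact permutation p of 0.0286. The same p was found in the equal-length lists without Ppara -/- library 2, at differences of -23.0 and -9.0. The cause of the turn was not tested. With the replicate number as a replicate block, the rank differences at Acaa1a (-21.9), Hsd17b4 (31.3) and Abcd3 (33.4) had an exact permutation p of 0.0556, the smallest that 36 orders allow. For the calls the replicate block left the counts of separated regions at 6 for Ppara status and 0 for Cpt2 status, with a smallest exact permutation p of 0.0556, so 0 regions of any gene passed 0.05 unadjusted. The labels do not say that a number marks a shared animal or day. The exact permutation p was 0.0571 at Hsd17b4 without Cpt2 L-/- library 1 or either Ppara -/- library, and at the Abcd3 start without Ppara -/- library 2 or either double knockout library. At Acaa1a it was 0.0286 whichever library was left out. With no read totals, a missing call cannot be told from a peak just under the calling threshold.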
